A study of Mus musculus with 15 samples.

Results

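The gene expression of the healing femur after spaceflight was compared with that of matched ground controls in mice that carried a segmental bone defect (SBD), a surgically removed piece of the femoral midshaft. The comparison used the 3 arrays of FLT-Surgery mice, titled Flight-SAL on the labels, and the 4 arrays of G-Surgery mice, titled Ground-SAL, out of 15 arrays in the series. Each array held the RNA of 1 mouse. The other 8 arrays, from mice without surgery, served for the test of whether the spaceflight difference differed between operated and unoperated femurs. They also entered an alternative fit over all 15 arrays. All mice were male C57BL/6J, given on the labels as 9 weeks old. Mice of both groups compared underwent the same surgery and received a scaffold with a collagen sponge soaked in saline, without an added bone-forming protein. FLT-Surgery mice then lived on the International Space Station, and G-Surgery mice lived in identical hardware on Earth at a later time. Carcasses were frozen whole, partially thawed for dissection, and the femoral midshaft without both ends was taken as the callus region. The RNA was therefore bulk RNA of everything in that segment, and fewer cells of a type and less RNA per cell cannot be told apart. The callus RNA carried the red dye Cy5, and a commercial mouse reference RNA carried the green dye Cy3 on every array.

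A bone defect heals through a callus in which progenitor cells form cartilage and fibrous matrix that osteoblasts replace with bone, while vessels grow in and osteoclasts remodel the new tissue. Fibroblast growth factor (FGF), bone morphogenetic protein (BMP) and Wnt signals direct these steps. The femoral shaft is wrapped in skeletal muscle, whose slow-twitch fibres are used for posture and whose fast-twitch fibres are used for rapid movement, and the slow fibres are known to respond strongly when weight bearing is removed.

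Values are given as the log2 ratio of callus to reference signal on each array, so that 1 unit is a doubling relative to the same reference RNA, and levels of different genes are not compared. The Cy5 signal stood well above background for 12493 to 14260 of 55681 probes on the FLT-Surgery arrays (median 14125) and for 14309 to 20697 on the G-Surgery arrays (median 16185.5). The group means differed by -3218.25 probes (exact permutation test over 35 assignments, two-sided, p = 0.0571), and no spot was marked as saturated. The 7 arrays lay on 2 slides. Slide 1 held G-Surgery 1, 4 and 5 and FLT-Surgery 3 and 5, and slide 2 held FLT-Surgery 1 and G-Surgery 3. FLT-Surgery 1 stood apart from the other FLT-Surgery arrays, had the lowest array weight in limma (0.259, against 0.74 to 1.87 for the others) and lay among the ground arrays on the first principal component, which held 47.6% of the variance.

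Markers of skeletal tissue were only partly detected. The study describes its RNA as of sub-optimal quality, so an undetected marker does not show that its cell type was absent. The same limit holds for every gene below background. The bone matrix genes Col1a1, Col1a2, Sparc and Bglap3 were above background on all 7 arrays. In contrast, Sp7, Dlx5 and Ifitm5 of the osteoblast list, Dmp1, Phex and Sost of the osteocyte list, and Sox9, Col10a1 and Ihh of the chondrocyte list were above background on 0 of the 7 arrays. Of 26 osteoblast and bone matrix genes 13 could be tested, and of 25 chondrocyte genes 9 could be tested. Fast-twitch muscle genes were detected in both groups, with 13 to 16 of 18 above background on each flight array and 15 to 17 on each ground array. Of 16 slow-twitch genes, 5 to 7 were above background on each flight array and 12 to 15 on each ground array. Of 23 myogenic regulators 11 could be tested.

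Among 8500 genes tested, each by its brightest probe, 280 were called different between FLT-Surgery and G-Surgery (3.29% of genes), of which 226 were lower (2.66%) and 54 were higher (0.635%) in FLT-Surgery. Called means a change of at least 2-fold whose nominal p in limma was 0.01 or lower, the cut-off of the study's methods. No probe reached a Benjamini-Hochberg adjusted p of 0.05 in limma among the 16548 tested, where 2707 probes had a nominal (unadjusted) p of 0.05 or lower and the smallest adjusted p was 0.0625. At the level of probes 519 were called (3.14%), 346 lower (2.09%) and 173 higher (1.05%). The adjusted p of the called genes lay between 0.172 and 0.28, so each gene named here as called passed the unadjusted cut-off only. The arrays of the groups did not overlap for 215 of the 226 genes called lower and for all 54 called higher. Over all genes tested, 849 did not overlap in the lower direction (9.99%) and 440 in the higher direction (5.18%).

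The split between higher and lower calls depended on how the arrays were scaled, whereas no gene called lower on the slow-twitch or chondrocyte lists changed sign under any of the scalings tried. Over all genes the median log2 fold change was -0.35, and 5944 genes (69.9%) lay below 0 and 2556 (30.1%) above. A second loess within each array moved this median to 0.13 and gave 459 calls (5.4%), 33 lower (0.388%) and 426 higher (5.01%). Centring each array on its median moved it to -0.02, with 360 calls (4.24%), 72 lower (0.847%) and 288 higher (3.39%). Background correction by normexp with loess moved it to 0.00 and gave 108 calls (1.27%), 25 lower (0.294%) and 83 higher (0.976%). Quantile normalization between arrays gave 116 lower and 96 higher at a median of 0.02, and Cy5 alone gave 163 lower and 127 higher at a median of -0.17. Where Cy5 had to be above background on all 7 arrays, 205 genes were called (4.16%), 125 lower (2.54%) and 80 higher (1.63%), and where both channels had to be, 207 were called (4.25%), 128 lower (2.63%) and 79 higher (1.62%). Of the 226 genes called lower, all 226 kept their sign under the second loess, median centring and quantile normalization, 224 kept it with Cy5 alone and 206 with normexp and loess. All 54 genes called higher kept their sign under these scalings except 1 with Cy5 alone.

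**Figure D1:**
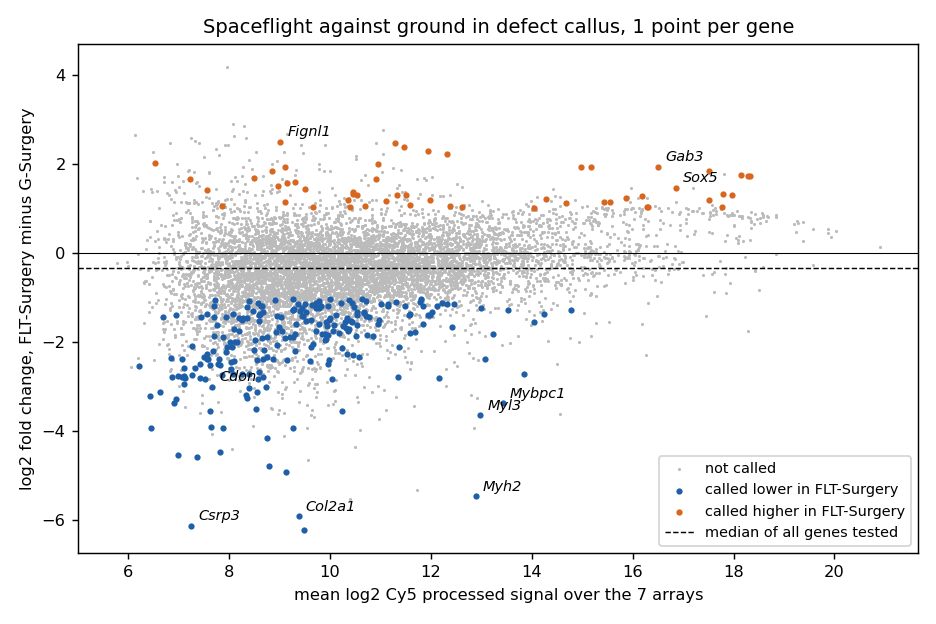
Each point is 1 of the 8500 genes tested, with the mean log2 Cy5 signal over the 7 arrays on the x axis and the log2 fold change of FLT-Surgery minus G-Surgery on the y axis. Blue points are the 226 genes called lower and orange points the 54 called higher. The genes called higher reach the brightest signals, and the genes called lower lie mainly among dimmer probes. The dashed line is the median of all genes, -0.35.

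Genes called lower were mostly dim, with a median of 9.27 on the log2 Cy5 scale against 10.15 over all genes tested, and 93 of the 226 were below background on every FLT-Surgery array. For those genes a fold change is a lower bound, given below as "at least N-fold". A mean log2 Cy5 signal above 14 was found for 21 of the 54 genes called higher (38.9%), for 3 of the 226 called lower (1.33%) and for 631 of the 8500 tested (7.42%). A deposited log ratio of exactly 0 occurred at 85698 spots of the 7 arrays, and 0 of those spots were above background in either channel. Thus a value of 0.00 below is no measured level.

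Of 12 slow-twitch muscle genes tested, 9 were called lower and 0 higher in FLT-Surgery, with a median log2 fold change of -3.78 against -0.35 for all genes, and 5 of the 12 were below background on every FLT-Surgery array and passed the filter through ground arrays. Of the 5 above background on all 7 arrays, 4 were called lower, with a median of -2.72. Averaged over the 12 genes, the log2 ratio was 2.53, 0.42 and 0.79 on FLT-Surgery 1, 3 and 5 and 3.59, 6.95, 5.65 and 4.24 on G-Surgery 1, 3, 4 and 5. Every ground array lay above every flight array on this average, and G-Surgery 3 was the highest. The median was negative in all 23 alternative settings, from -2.02 with normexp and loess to -4.61 without FLT-Surgery 1. It was -3.97 with slide as a block and -4.05 within slide 1.

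Myl3 encodes the slow essential light chain of myosin. It measured 5.39, 2.85 and 4.72 on FLT-Surgery 1, 3 and 5 and 6.56, 9.46, 8.10 and 7.76 on G-Surgery 1, 3, 4 and 5. The groups did not overlap, and the log2 fold change was -3.65 (standard error (SE) 0.80, adjusted p = 0.25 in limma). Mybpc1, the slow form of myosin-binding protein C, measured 6.87, 4.54 and 6.46 in flight and 7.80, 10.64, 10 and 8.94 on the ground, in the same order of arrays. Its log2 fold change was -3.39 (SE 0.80), again without overlap. Tnnt1, slow troponin T, measured 1.75, 0.91 and 0.76 in flight and 2.68, 5.4, 4.34 and 3.02 on the ground. The lowest ground array, G-Surgery 1, still lay above the highest flight array, and the log2 fold change was -2.72 (SE 0.67). All 3 genes were above background on every array.

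Myl2, the slow regulatory light chain, was called lower although the groups overlapped, and it was above background on 1 of the 3 flight arrays. FLT-Surgery 1 measured 4.58, close to G-Surgery 1 at 4.50, whereas FLT-Surgery 3 and 5 measured -1.12 and -1.0 and G-Surgery 3, 4 and 5 measured 9.81, 8.65 and 5.23. The log2 fold change was -6.23 (SE 1.79, adjusted p = 0.28 in limma). Myh7, the slow myosin heavy chain, showed the same arrangement, with 4.86 on FLT-Surgery 1 and 4.74 on G-Surgery 1. Its difference of -5.34 (SE 1.72) was not called.

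Csrp3, the muscle LIM protein of the Z-disc, measured 0.71, 0.13 and -4.15 in flight, all below background, and 2.33, 7.6, 6.37 and 3.86 on the ground. It was at least 3.88-fold higher in G-Surgery. Myom3, an M-band protein, measured 0.87, -1.35 and 0.02 in flight and 2.81, 7.26, 5.48 and 3.58 on the ground and was at least 14.4-fold higher in G-Surgery. Myoz2, a Z-disc protein that binds calcineurin, measured 1.11, -0.68 and 0.00 in flight and 3.50, 6.57, 5.31 and 3.40 on the ground, which gave at least 3.54-fold. Smtnl1, a smoothelin-like protein, was at least 4.90-fold higher in G-Surgery. None of these genes overlapped between groups, and none was above background on any flight array. Fabp3, which carries fatty acids in oxidative muscle, was called lower at -2.38 (SE 0.54). The remaining slow-twitch genes tested were Ankrd2, a stress-responsive protein of the sarcomere, at -3.20 (SE 0.99), below background in flight and not called, and Tpm3, a slow tropomyosin, at 0.12 (SE 0.26), the only member above 0.

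**Figure D2:**
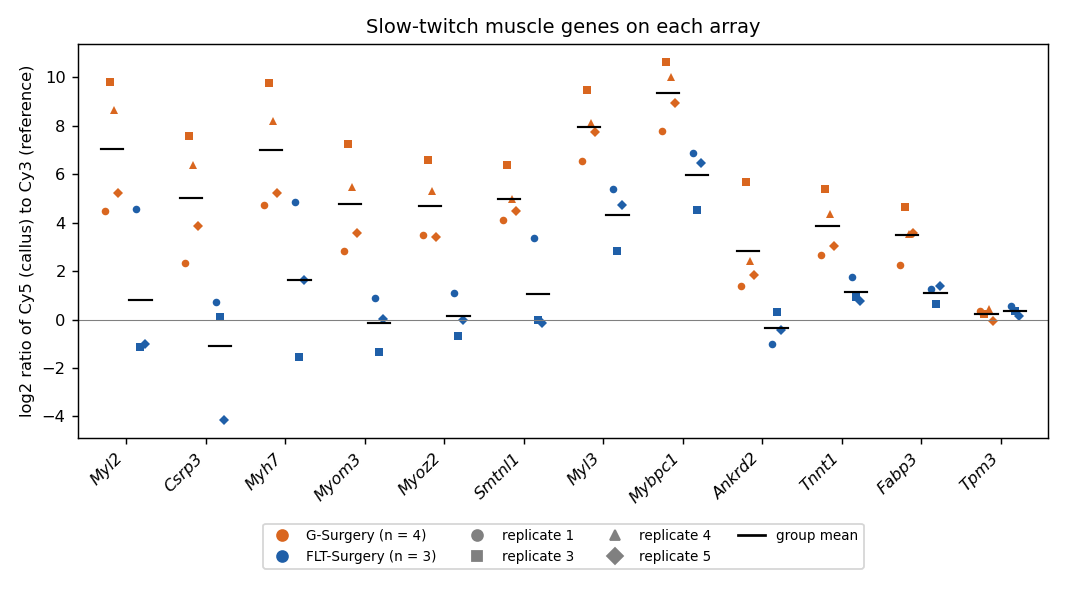
The log2 ratio of callus to reference is plotted for the 12 slow-twitch genes tested, with 1 point per array, orange for G-Surgery (n = 4) and blue for FLT-Surgery (n = 3). Marker shapes give the replicate number and black lines the group means. For 11 of the 12 genes the flight mean lies below the ground mean, and FLT-Surgery 1 is the flight array nearest to the ground arrays for Myl2 and Myh7.

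The starts of the muscle genes called lower were examined for sequence letters bound by muscle factors. Windows of 250 bases before each RefSeq start (mouse build GRCm38.p6) were searched on both strands for CAGCTG, an E-box that myogenic factors can bind, for CTA and TAG with any 4 bases between them, and for the TATAAA box. The second pattern, named the MEF2 form here, is looser than the MEF2 motif, whose 4 middle bases are A or T. All 16 muscle genes called lower on the 5 muscle lists described here and next had such windows, 19 in all. CAGCTG stood in 4 of the 16 genes (Cav3, Mybpc1, Myl2 and Myoz2), in 4 of their 19 windows and in 13.0% of 32851 windows of all genes. The MEF2 form stood in 3 genes and 3 of the 19 windows (Flnc, Myoz2 and Xirp2) and in 3.2% of all windows. The middle bases of the Flnc match include G and C, so that match is not the MEF2 motif itself. TATAAA stood in 2 genes and 2 of the 19 windows (Myl2 and Tnnt1) and in 12.4% of all windows. A match of the MEF2 form can also hold the letters of a TATA box. The windows of 3 slow-twitch genes with the matches in capitals are shown because their transcripts are described above, and they were chosen after the matches were known. In Myoz2 (chr3:123034988-123035237, minus strand) both the MEF2-type letters and the E-box lie near the start. In Mybpc1 (chr10:88605153-88605402, minus strand) 1 E-box ends 81 bases before the start, and in Tnnt1 (chr7:4515976-4516225, minus strand) TATAAA ends 24 bases before it.
Myoz2: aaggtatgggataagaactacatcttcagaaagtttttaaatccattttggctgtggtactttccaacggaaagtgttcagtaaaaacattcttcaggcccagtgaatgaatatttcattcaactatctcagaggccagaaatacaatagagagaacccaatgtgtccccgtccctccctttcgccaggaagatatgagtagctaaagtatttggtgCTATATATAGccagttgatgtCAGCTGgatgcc
Mybpc1: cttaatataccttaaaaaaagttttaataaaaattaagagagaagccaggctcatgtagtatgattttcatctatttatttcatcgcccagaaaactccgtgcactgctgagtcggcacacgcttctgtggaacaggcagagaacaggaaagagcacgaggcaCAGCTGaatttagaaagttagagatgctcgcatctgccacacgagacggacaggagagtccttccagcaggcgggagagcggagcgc
Tnnt1: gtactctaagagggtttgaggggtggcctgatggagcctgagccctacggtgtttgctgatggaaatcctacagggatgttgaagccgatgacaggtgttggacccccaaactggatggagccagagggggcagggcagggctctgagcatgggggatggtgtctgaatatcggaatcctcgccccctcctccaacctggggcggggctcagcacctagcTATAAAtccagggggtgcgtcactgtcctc
These matches describe letters in the windows and say nothing of binding in the callus.

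All 16 fast-twitch genes tested had negative log2 fold changes, with a median of -1.87, but only Myh2 was called. Myh2, the type IIa myosin heavy chain of fast oxidative fibres, measured 8.77, 4.57 and 5.57 on FLT-Surgery 1, 3 and 5 and 10.06, 13.00, 12.41 and 11.65 on G-Surgery 1, 3, 4 and 5. The groups did not overlap, and the log2 fold change was -5.48 (SE 1.08, adjusted p = 0.208 in limma). Myh2 kept its call in 21 of 22 alternative settings, the exception being the replicate block. The fast myosin Myh1 measured 11.71, 7.43 and 10.96 in flight and 11.08, 12.81, 12.73 and 12.75 on the ground, where FLT-Surgery 1 lay above G-Surgery 1. Its difference was -2.31 (SE 1.01) and was not called.

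FLT-Surgery 1 carried fast muscle signal within the range of the ground arrays. Averaged over the 16 fast-twitch genes, the log2 ratio was 7.76, 4.30 and 4.06 on FLT-Surgery 1, 3 and 5 and 5.69, 8.32, 7.72 and 7.94 on G-Surgery 1, 3, 4 and 5. Without FLT-Surgery 1, 11 fast-twitch genes were called lower, beside 1310 of all 8500 genes (15.4%). With slide as a block 2 were called lower, beside 8.78% of all genes. Other fast-twitch genes not called in the comparison included Tnnc2, fast troponin C, at -0.85 (SE 0.53) and Pvalb, the calcium buffer parvalbumin, at -1.57 (SE 0.65). Ckm, muscle creatine kinase, stood at -2.63 (SE 1.31), Myom2, an M-band protein, at -1.98 (SE 0.85) and Tnni2, fast troponin I, at -1.76 (SE 0.89).

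Of 22 sarcomere scaffold genes tested, 20 were below 0 (median -1.68), and Flnc and Xirp2 were called lower. Flnc, filamin C, stood at -1.56 (SE 0.45), and Xirp2, an actin-binding protein of the Z-disc, was at least 1.72-fold higher in G-Surgery. Klhl41 and Fhl1, proteins that maintain sarcomeres, stood at -3.61 (SE 1.09) and -3.46 (SE 1.11, below background in flight) and were not called. All 12 calcium handling genes were below 0 (median -1.76), and Cav3, the muscle caveolin, was called lower, its level being at least 3.14-fold higher in G-Surgery. Sln, the calcium pump regulator sarcolipin, stood at -3.33 (SE 1.15), Cacna2d1 and Cacna1s, subunits of the calcium channel of the T-tubule, at -3.24 (SE 1.18) and -1.62 (SE 0.76), and Jsrp1, a protein of the junction with the sarcoplasmic reticulum, at -1.93 (SE 0.73), none of them called. Synpo2l, a Z-disc protein of the sarcomere scaffold list, lay above 0 at 0.99 (SE 0.30) and was not called.

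Among 11 myogenic regulators tested, 3 were called lower and 1 higher, with a median of -1.93 (0.09 over the 5 genes above background on all 7 arrays). Cdon is a cell surface receptor that promotes muscle differentiation, and it measured -5.13, -5.30 and -5.33 in flight, below background on all 3 arrays, and -2.67, -1.77, -1.87 and -2.64 on the ground. The flight values are therefore no measured levels, and Cdon was called lower as a bound, being at least 3.68-fold higher in G-Surgery (adjusted p = 0.172 in limma). With normexp and loess its difference was -0.10 and was not called. Cdh15, the cadherin of myoblasts and satellite cells, exceeded its flight level in G-Surgery by at least 3.0-fold, without overlap. Vgll2, a cofactor of TEAD factors in muscle, stood at -4.80 (SE 1.30). Mef2a, a transcription factor of muscle and other tissues, was called higher, with 4.56, 4.08 and 4.54 in flight against 3.41, 3.01, 3.02 and 3.37 on the ground and a difference of 1.19 (SE 0.27).

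Of 10 genes of muscle atrophy and FoxO signalling tested, 7 lay below 0 with a median of -0.42, which became 0.33 after quantile normalization and 0.13 with normexp and loess. Trim63, the ubiquitin ligase MuRF1 that marks myosin for breakdown, was called lower and was at least 2.38-fold higher in G-Surgery. Sesn1, a stress-induced inhibitor of growth signalling, was called lower at -1.16 (SE 0.33) but stood at 0.016 with Cy5 alone. Trim72, which seals muscle membranes and is on no list, was called lower at -3.94 (SE 0.95).

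Over the 5 lists of contractile, scaffold, calcium and myogenic genes together, 71 genes were tested, 16 were called lower (22.5%) and 1 higher. Among the other 8429 genes, 210 were called lower (2.49%) and 53 higher. The medians were -2.04 and -0.35. Because 13 of the 71 were below background on every flight array and passed the filter through ground arrays, the 40 genes above background on all 7 arrays were read separately. They had a median of -1.60 with 6 called lower, against -0.15 with 56 called lower among 4871 other genes. Muscle genes were also unequal within the ground group, where G-Surgery 1 was lowest and G-Surgery 3 highest on the slow-twitch average. How much muscle adhered to each dissected segment was not measured, and its part in the results for other gene groups was not tested.

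Cartilage genes were also called lower, although most of the list was not detected. Of 9 chondrocyte genes tested, 4 were called lower and 1 higher, the median was -1.46, and 3 of the 9 were below background on every flight array. The median stayed between -0.34 and -1.37 under the 5 other scalings, but 1 gene alone, Sox5, was above background on all 7 arrays. Col2a1, the main collagen of cartilage, measured 1.76, -2.14 and -2.46 on FLT-Surgery 1, 3 and 5 and 1.98, 4.65, 8.06 and 5.21 on G-Surgery 1, 3, 4 and 5. FLT-Surgery 1 and G-Surgery 1 lay next to each other, and the difference was -5.92 (SE 1.53, adjusted p = 0.28 in limma). Prg4, the joint lubricant lubricin, measured 2.36, 0.00 and 0.00 in flight, below background on each, and 5.55, 6.38, 2.75 and 6.82 on the ground. G-Surgery 4 was low, the groups did not overlap, and Prg4 was at least 4.66-fold higher in G-Surgery.

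Fgfr3, the receptor that restrains growth of cartilage, measured -1.55, -2.93 and -3.49 in flight and 0.05, 0.53, 0.93 and -1.07 on the ground. The groups did not overlap, and G-Surgery was at least 2.27-fold higher. Mia, a small protein secreted by chondrocytes, was at least 2.07-fold higher in G-Surgery, and its call was lost in 16 of 21 alternative settings. Comp and Acan, matrix proteins of cartilage, stood at -3.50 (SE 1.07) and -1.41 (SE 0.43) and were not called. Chad, a leucine-rich matrix protein, and Col9a2, a collagen on cartilage fibrils, stood at -0.94 (SE 0.41) and -0.92 (SE 0.50).

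Sox5, a transcription factor that helps to activate cartilage genes, went the other way. It measured 6.51, 6.40 and 6.68 in flight and 5.32, 4.85, 4.99 and 5.14 on the ground, with little spread in either group. The log2 fold change was 1.45 (SE 0.25, adjusted p = 0.208 in limma). Its signal was very bright (16.9 on the log2 Cy5 scale), and its call was lost after quantile normalization between arrays and with the replicate block.

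**Figure D3:**
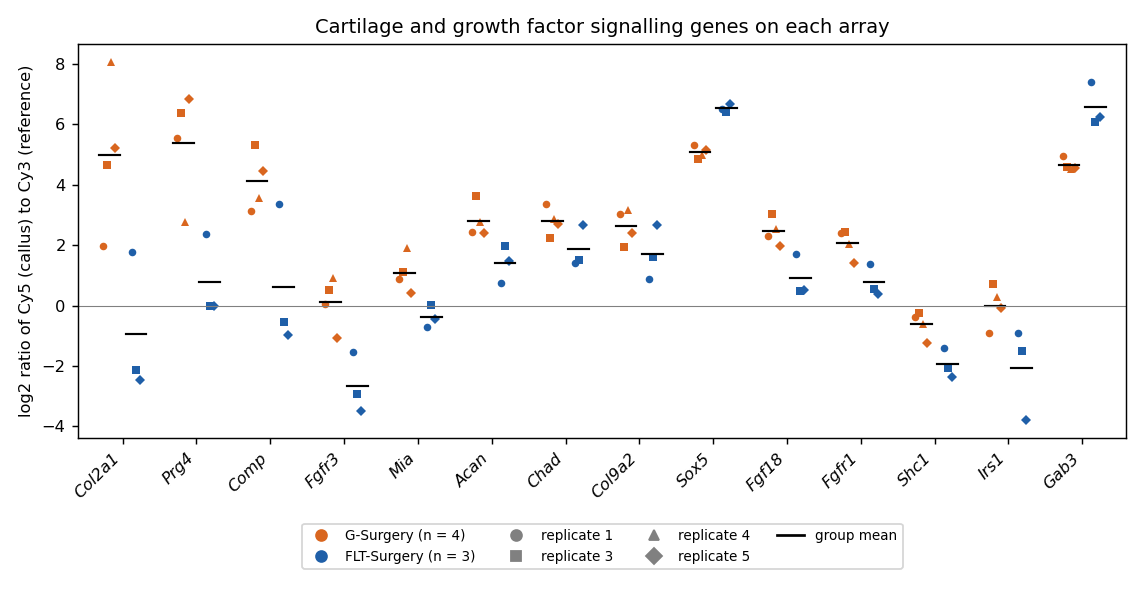
The log2 ratio of callus to reference is plotted for 9 cartilage genes and for 5 further genes of growth factor signalling, with 1 point per array, orange for G-Surgery (n = 4) and blue for FLT-Surgery (n = 3). Marker shapes give the replicate number and black lines the group means. Sox5 and Gab3 are the genes with the flight arrays above the ground arrays, and for Irs1 replicate 1 of both groups lies at -0.90.

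Genes of the bone matrix and its cells showed no call. Of 13 osteoblast and bone matrix genes tested by their brightest probes, 0 were called in limma and 0 had a nominal p of 0.05 or lower. Without FLT-Surgery 1, 2 of the 13 were called lower, beside 15.4% of all genes. The median of -0.27 turned to 0.20 after the second loess, 0.05 after median centring and 0.01 with normexp and loess. Sparc stood at -0.20 by its brightest probe. Its other tested probe, also above background on all 7 arrays, stood lower at -1.98 (SE 0.73) and was not called. Col1a1, the main collagen of bone, measured 2.28, 1.66 and 1.70 in flight and 2.48, 3.06, 2.50 and 2.10 on the ground, with overlap and a difference of -0.66 (SE 0.32). Bglap3, an osteocalcin family gene, measured 3.65, 2.56 and 3.22 in flight and 3.25, 4.67, 3.19 and 4.01 on the ground. Its difference was -0.63 (SE 0.46), and it shares sequence with close paralogs, which makes its probe uncertain. Postn, the periosteal matrix protein periostin, spread widely from -3.69 to 2.86 in flight and from 0.08 to 4.28 on the ground.

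Neither osteocyte nor osteoclast genes were called in limma, and 0 and 1 of them had a nominal p of 0.05 or lower. Without FLT-Surgery 1, 0 osteocyte and 2 osteoclast genes were called lower, beside 15.4% of all genes. The 6 osteocyte genes tested had a median of -0.03, which turned to 0.48 after the second loess, and Fgf23, the phosphate-regulating hormone of osteocytes, stood at 0.75 (SE 0.33) without a call. The 10 osteoclast genes tested had a median of -0.68, negative in all 23 settings. Ctsk, the protease that degrades bone matrix, measured 6.02, 1.36 and -3.41 in flight and 4.43, 5.88, 4.99 and 3.77 on the ground. The flight arrays alone spanned the whole range of the ground arrays, and the difference of -3.44 (SE 1.91) was not called. Acp5, the acid phosphatase of osteoclasts, stood at -0.90 (SE 0.74), and Tnfrsf11a, the receptor RANK, at -0.64 (SE 0.32).

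The averages of fibrous matrix and vessel genes were low on FLT-Surgery 3 and 5 but not on FLT-Surgery 1. Of 21 fibrous and tendon matrix genes tested, 19 were below 0 (median -1.21), and 1, Serpinh1, the chaperone that folds collagen, was called lower at -1.83 (SE 0.48). The list average was 0.90, -1.09 and -1.37 on FLT-Surgery 1, 3 and 5 and 0.90, 1.70, 1.11 and 0.49 on G-Surgery 1, 3, 4 and 5. Without FLT-Surgery 1, 13 of the 21 were called lower, beside 15.4% of all genes, and 10 were called with slide as a block, beside 8.78%. Thbs4, a tendon matrix protein, measured 7.57, 2.28 and 1.36 in flight and 6.38, 10.93, 8.88 and 7.38 on the ground and was not called at -4.65 (SE 1.64). Col5a2, a fibrillar collagen, Scx, a transcription factor of tendon, and Fn1, fibronectin, stood at -2.44 (SE 0.86), -1.71 (SE 0.60) and -0.90 (SE 0.32), none called.

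Of 11 endothelial genes tested, 0 were called in limma and 5 had a nominal p of 0.05 or lower, with a median of -1.92 and 9 below 0. The list average was 3.14 on FLT-Surgery 1 and 0.83 and 0.49 on FLT-Surgery 3 and 5, against 2.31 to 3.64 on the ground. Without FLT-Surgery 1, 8 of the 11 were called lower, and 6 were called with slide as a block, where the shares over all genes were 15.4% and 8.78%. Egfl7, a protein secreted by endothelium, stood at -1.87 (SE 0.64), Stab1, a scavenger receptor of sinusoidal endothelium, at -2.62 (SE 0.97), and Esam, an endothelial adhesion molecule, at -2.58 (SE 0.77), below background in flight. The endothelial markers Tek, Tie1 and Emcn were above background on 0 of the 7 arrays.

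Growth factor signalling showed calls in both directions. Of 27 FGF and insulin-like growth factor pathway genes tested, 4 were called lower and 1 higher, with a median of -1.0 that stayed below 0 in all 23 settings. Fgf18, a ligand that acts on cartilage and bone, measured 1.72, 0.48 and 0.51 in flight and 2.32, 3.03, 2.53 and 1.97 on the ground, with no overlap and a difference of -1.56 (SE 0.41). Shc1, an adaptor that links receptors to Ras, measured -1.41, -2.08 and -2.36 in flight and -0.37, -0.23, -0.60 and -1.25 on the ground, a difference of -1.34 (SE 0.36). Fgfr3 is described above. For Fgfr1, the main FGF receptor of mesenchymal cells, the brightest probe stood at -1.30 (SE 0.38) and was called lower. Its other tested probe stood at 1.14 (SE 0.30) and was called higher, so no direction is given for the gene from these arrays. The study reported Fgfr1 as higher in FLT-Surgery on the array and by real-time PCR.

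Gab3, a docking protein downstream of growth factor receptors in macrophages, was called higher. It measured 7.39, 6.09 and 6.25 in flight and 4.95, 4.58, 4.53 and 4.54 on the ground, a difference of 1.93 (SE 0.37, adjusted p = 0.208 in limma). The Gab3 signal was very bright (16.5 on the log2 Cy5 scale), and its call was lost with Cy5 alone. Irs1, the insulin receptor substrate, stood at -2.06 (SE 0.72) by its brightest probe and was not called, whereas its other probe was called lower at -2.14 (SE 0.48). Pdpk1, the kinase that activates Akt, stood at -0.71 (SE 0.33) by its brightest probe and at -2.17 (SE 0.55), called lower, by another.

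Of 21 genes of the NF-kB pathway core tested, 4 were called lower, 17 were below 0 and the median was -0.64, which changed to 0.03 after quantile normalization. Chuk, the kinase IKK-alpha, measured -2.48, -4.06 and -3.01 in flight and -1.47, -1.31, -1.42 and -1.45 on the ground. The ground values were nearly equal, and the difference was -1.77 (SE 0.39). Tab2, an adaptor of the TAK1 kinase, and Ube2n, which builds the ubiquitin chains of this pathway, had higher levels in G-Surgery, by at least 5.86-fold and 2.66-fold. Tnip2, an inhibitor of NF-kB activation, stood at -1.19 (SE 0.34). These members thus include both activators and an inhibitor.

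Among 15 calcineurin pathway genes, Ppp3r1, the regulatory subunit of calcineurin, was called lower at -2.50 (SE 0.61) beside Myoz2, and the median was -1.20. Of 23 BMP and TGF-beta genes, 1 was called lower, namely Ltbp1, which stores latent TGF-beta in the matrix, at -2.15 (SE 0.56). Of 18 angiogenic and hypoxia genes, the lipase inhibitor Angptl4 at -1.16 (SE 0.31) and Vhl, which targets hypoxia factors for breakdown, at -1.19 (SE 0.31) were called lower, and the median of -0.36 turned to 0.07 after the second loess and 0.16 after quantile normalization. Of 21 Wnt genes 0 were called in limma and 7 had a nominal p of 0.05 or lower, with 5 called lower without FLT-Surgery 1, beside 15.4% of all genes. The medians of the BMP and TGF-beta and the Wnt lists were -0.49 and -0.44, and that of the Wnt list turned to 0.23 after the second loess and 0.02 after quantile normalization.

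Genes of oxidative metabolism lay below 0 as broad groups with few calls. Of 24 fatty acid oxidation genes tested, 21 were below 0 (median -0.96) and 3 were called lower. Decr1, which prepares unsaturated fatty acids for oxidation, measured 0.71, -0.15 and 0.07 in flight and 1.31, 2.21, 1.48 and 1.42 on the ground, a difference of -1.40 (SE 0.34) without overlap. Cpt2, which carries fatty acids into the mitochondrial matrix, measured -0.64, -0.94 and -2.02 in flight and -0.26, 0.87, 0.61 and 0.52 on the ground, a difference of -1.64 (SE 0.43). Fabp3 is also on this list. Hadh, Hadhb and Etfa, enzymes of the same pathway, stood at -0.96 (SE 0.29), -1.72 (SE 0.53) and -1.04 (SE 0.31) and were not called.

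Of 41 complex I genes tested, 39 were below 0 and 0 were called in limma (9 had a nominal p of 0.05 or lower, and 6 of the 41 were called lower without FLT-Surgery 1, a setting in which 15.4% of all genes were called lower). Of 46 genes of complexes II to V, 40 were below 0 and 1 was called lower, Uqcr11 of complex III, at -1.28 (SE 0.33). The medians were -0.78 and -0.79 and stayed below 0 in all 23 settings. By comparison, 58 of 78 cytosolic ribosome genes were below 0 with a median of -0.17, which turned to 0.35 after quantile normalization. The complex I average, like the slow-twitch average, was highest on G-Surgery 3 (0.22) and, among flight arrays, on FLT-Surgery 1 (-0.24). The part of muscle content in this was not tested.

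**Figure D4:**
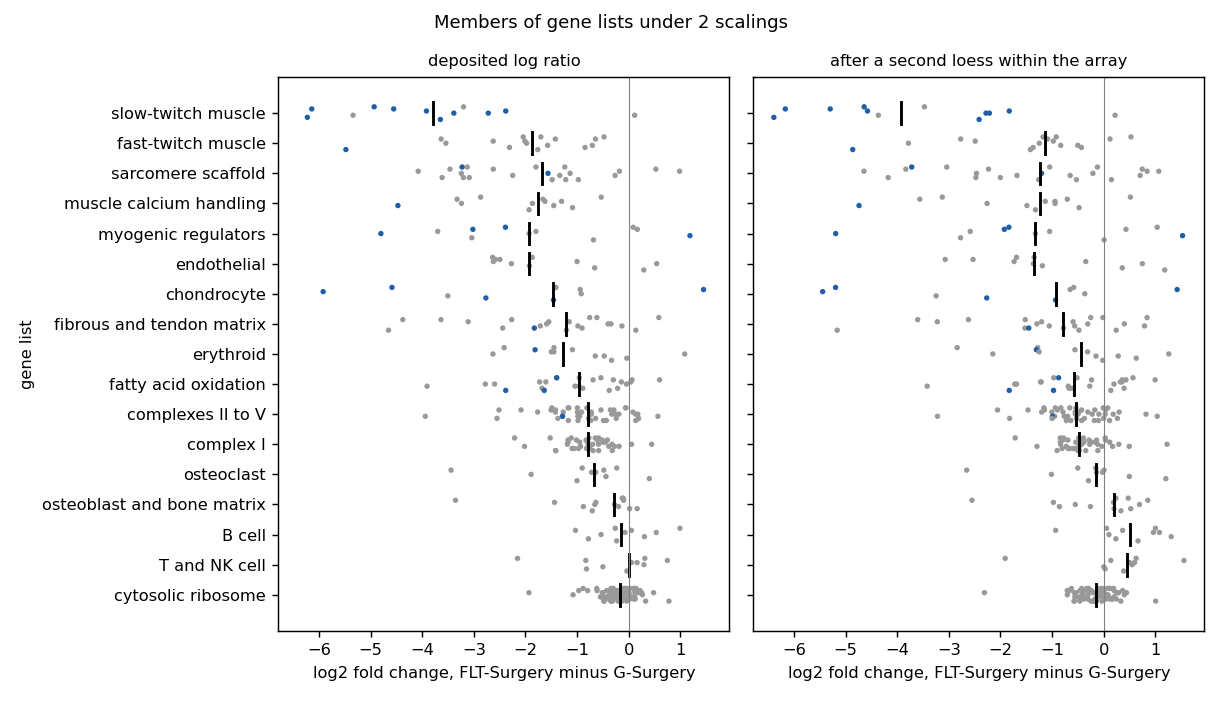
Each point is 1 tested gene of a list, placed by its log2 fold change of FLT-Surgery minus G-Surgery, from the deposited log ratio on the left and after a second loess on the right. Blue marks genes called in the main comparison, grey all others, and black bars list medians. The slow-twitch median is -3.78 in the left panel and -3.92 in the right, while the B cell, T and NK cell and osteoblast medians move from near 0 to above 0.

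Blood and marrow lists showed few calls. Clec10a, a lectin of macrophages and dendritic cells, was the 1 gene called of 13 monocyte and macrophage genes and was at least 2.07-fold higher in G-Surgery. Slc25a37, the mitochondrial iron importer of erythroid cells, was the 1 called of 12 erythroid genes, at -1.81 (SE 0.41). The erythroid median was -1.27, and 11 of the 12 genes lay below 0. The globin genes tested, Hba-a1, Hba-a2 and Hbb-bt, stood at -0.034, -0.33 and -1.45, Alas2, the first enzyme of heme synthesis in erythroid cells, at -2.41 and the transferrin receptor Tfrc at -2.63, none of them called. Of 11 neutrophil genes 0 were called in limma and 5 had a nominal p of 0.05 or lower. Without FLT-Surgery 1, 3 of them were called lower, beside 15.4% of all genes. S100a9, an abundant neutrophil protein, measured 11.42, 7.72 and 9.39 in flight and 10.64 to 11.84 on the ground. Of 10 B cell and 10 T and NK cell genes, 0 were called in limma and 1 and 2 had a nominal p of 0.05 or lower, with medians of -0.15 and 0.01 that became 0.52 and 0.45 after the second loess. Without FLT-Surgery 1, 1 gene was called on each list, beside 16.1% of all genes. Itgam, an integrin of myeloid cells, stood at 0.85 (SE 0.33) by its brightest probe and at -0.60 by another.

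The genes called higher in FLT-Surgery were mostly on none of the lists. Of 973 genes on any list that were tested, 44 were called lower and 6 were called higher, the latter including Mef2a, Sox5, Gab3, Kif19a and P2rx3. Ermn, which encodes the myelin-associated protein ermin, measured 7.30, 6.04 and 6.03 in flight and 4.96, 4.39, 4.48 and 4.30 on the ground, a difference of 1.92 (SE 0.39). Every flight array lay above every ground array, and FLT-Surgery 1 was the highest. The signal of this probe was very bright (15.2 on the log2 Cy5 scale). A second, dimmer probe of Ermn also lay above 0 at 1.23 (SE 0.54) and was not called.

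By the brightest probe, the largest increases among called genes, all without overlap, were those of Fignl1, a DNA repair ATPase, at 2.49 (SE 0.68), Akap7, an anchor of protein kinase A, at 2.46 (SE 0.70), and the unnamed transcript B020031M17Rik at 2.38 (SE 0.70). Fignl1 measured -0.37, -2.22 and -1.01 in flight and -3.09, -2.90, -5.32 and -3.47 on the ground, and it was above background on 1 of the 4 ground arrays. Pnma2, a neuronal antigen, Pinx1, an inhibitor of telomerase, and Hpse2, heparanase 2, followed at 2.29 (SE 0.56), 2.22 (SE 0.62) and 2.01 (SE 0.47), then 4933405E24Rik at 1.99 (SE 0.40) and P2rx3, an ATP-gated channel of sensory neurons, at 1.92 (SE 0.43). The other tested probes of Akap7 and P2rx3 both stood at -0.53, so no direction is given for these 2 genes. Akap7, B020031M17Rik, Pnma2 and Pinx1 shared their array order, with FLT-Surgery 1 highest and G-Surgery 5 lowest. Kif19a, a motor protein of cilia, was called higher at 1.29 (SE 0.30).

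Qk, an RNA-binding protein that controls splicing in muscle and myelin-forming cells, measured -0.47, -4.14 and -4.77 in flight and 0.32, 1.5, 1.10 and 0.36 on the ground. Its difference was -3.94 (SE 0.98), and its other tested probe stood at -1.48 (SE 0.89). Dnaja4, a heat shock protein cochaperone, was called lower at -2.41 (SE 0.65) as 1 of 22 heat shock genes. Itgb4, an integrin of basement membranes, was called lower at -1.15 (SE 0.33) as 1 of 19 integrin and laminin genes.

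When only probes above Cy5 background on all 7 arrays were tested, 79 of 9256 probes reached an adjusted p of 0.05 in limma (0.854%), of which 71 were higher in FLT-Surgery. A symbol was known for 22 of the 79, and the genes named next were chosen after their values were seen. Lower were Myh2 (adjusted p = 0.0422) and Fabp3 by its other probe (-2.62, adjusted p = 0.047), together with Mtg2, Golga3, Ncbp3 and Herc4 at -1.65, -1.60, -1.45 and -1.33. Higher were Sox5, Ermn, Gab3 and 4933405E24Rik, and further Gcm1 at 1.74 and 1.99 by 2 probes, Cplx2 at 1.32 and 1.54, Vash1 at 1.26 and 1.30, Pigr at 1.82, Rhox8 at 1.73 and Dcc at 1.72. The log2 Cy5 signals of Gcm1, Cplx2, Vash1, Pigr, Rhox8 and Dcc lay between 16.1 and 18.3. Why these probes are bright in a callus was not tested.

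**Figure D5:**
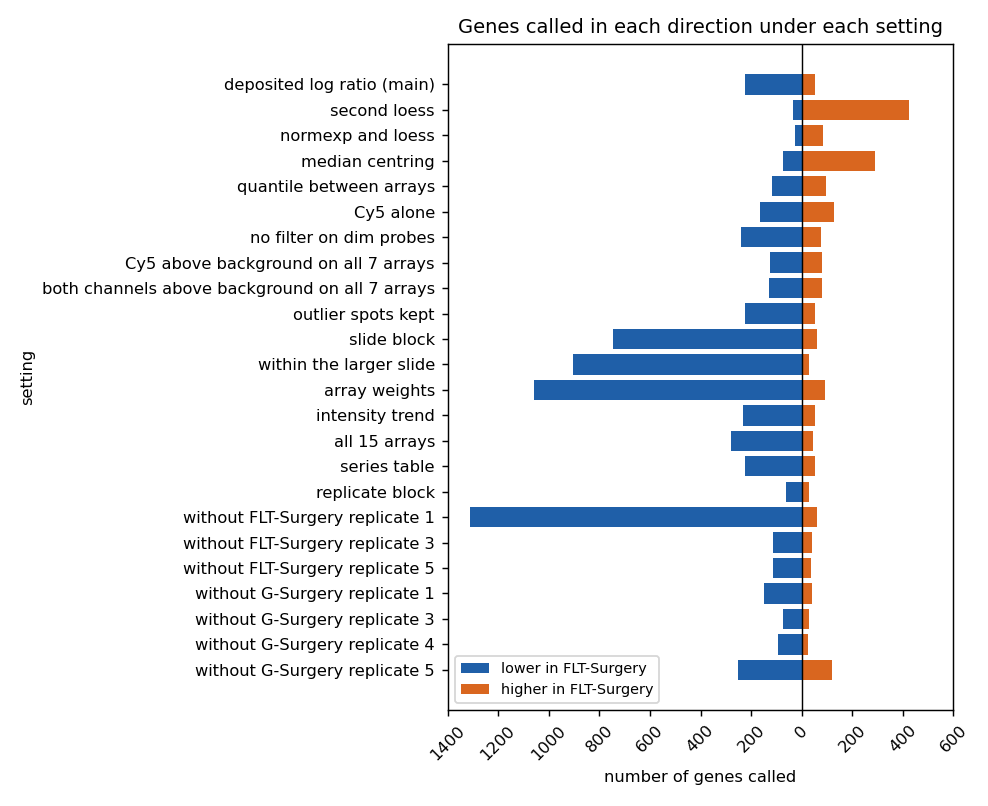
Bars give the number of genes called lower (blue, to the left) and higher (orange, to the right) in FLT-Surgery under each setting, with the number of genes on the x axis and 0 at the black line. The count called lower runs from 25 with normexp and loess to 1310 without FLT-Surgery 1, and the second loess, median centring and normexp with loess give more genes higher than lower.

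The array FLT-Surgery 1 decided much of the count. Among the 226 genes called lower, it was the highest of the 3 flight arrays for 170, and without it 1370 genes were called (16.1%), 1310 of them lower (15.4%) and 60 higher (0.706%). Without it and with Cy5 above background on all 7 arrays, 669 genes were called (13.6%), 551 lower (11.2%) and 118 higher (2.4%). Without G-Surgery 3, which was highest of all arrays for 147 of the 226, 73 genes were called lower. With slide as a block, 808 genes were called (9.51%), 746 lower (8.78%) and 62 higher (0.729%), which included 220 of the 226 lower and 44 of the 54 higher, and within slide 1 alone 161 and 17 of these were called. No called gene changed sign in either. Slide 2 held 1 array of each group and gives no test.

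The genes named by the study for this comparison are not independent evidence, since they were chosen on these arrays. Of 26, 22 could be tested, and 15 were called lower and 2 higher. Gsk3b, a kinase of insulin and Wnt signalling, stood at -0.98 (SE 0.32) and Gnas, a G protein subunit, at 0.67 (SE 0.28), and neither was called. Ostm1, a partner of the osteoclast chloride channel, stood at -1.0 (SE 0.38), below background in flight and also not called. The study reported Ostm1 as higher in FLT-Surgery on the array and by real-time PCR, opposite in sign to the value here.

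Lists with 0 calls in limma included glycolysis and glycogen (29 genes tested, median -0.53), matrix proteases and inhibitors (19, -0.85) and adipocyte genes (8, -1.02), whose medians stayed below 0 under the 5 other scalings. The remaining such lists were cell cycle (30, -0.18), apoptosis (22, -0.28), immediate-early genes (20, -0.38), antioxidant genes (29, -0.34), interferon-stimulated genes (20, -0.30), proteasome (36, -0.37), mitochondrial ribosome (62, -0.40), chemokines (19, -0.31), interleukins (22, -0.33), epidermis (5, 0.24) and Hox genes (10, -0.36), and each of these medians changed sign under at least 1 of the scalings. The 4 megakaryocyte genes had a median of 0.06. On each of these lists, 0 to 10 genes had a nominal p of 0.05 or lower. Without FLT-Surgery 1, 0 to 9 genes of each list were called lower, beside 15.4% of all genes. The circadian clock list also had 0 calls in limma, and 5 of its genes had a nominal p of 0.05 or lower. Without FLT-Surgery 1, 5 were called lower, beside 15.4% of all genes. All 11 genes tested lay below 0, as did 69.9% of all genes, with a list median of -0.89 that was negative in all 23 settings.

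The question of whether the flight difference was particular to operated femurs was put to an interaction over all 15 arrays. No probe of 21777 reached an adjusted p of 0.05 in limma, while 4244 had a nominal p of 0.05 or lower. Without FLT-Sham 8 the count at an adjusted p of 0.05 was 3013, and without FLT-Surgery 1 it was 633. In unoperated femurs 31 genes were called lower (0.279%) and 305 higher (2.75%) in flight, of 11104 tested. The slow-twitch median there was 0.98 over the 16 genes tested in those femurs, of which 12 were tested in the callus with a median of -3.78. For Myh2 the flight difference was -0.32 (SE 0.88) in unoperated femurs, and the interaction was -5.16 (SE 1.29, adjusted p = 0.171 in limma). For Col2a1 it was 1.35 (SE 1.40), with an interaction of -7.27 (SE 2.06, adjusted p = 0.171). No difference between operated and unoperated femurs therefore passed the adjusted threshold with all arrays in the fit.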

How the data were processed

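Expression was measured on 2-colour Agilent arrays in the callus RNA of 3 FLT-Surgery and 4 G-Surgery mice, with 8 further arrays from unoperated mice. Per the labels, the authors extracted the deposited values with Agilent Feature Extraction 12.0, which subtracts the background and normalizes the dyes. The deposited value of each spot is the log10 ratio of Cy5 to Cy3, and it was multiplied to the log2 scale here. The deposited spot intensity of each channel and its flag for signal above background were used for filters and alternatives.

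Spots of a probe were averaged, without control spots and spots flagged as outliers (42 probe values were missing among those tested). Probes with Cy5 above background on at least 3 of the 7 arrays were tested. Of 55681 probes, 28026 matched 1 RefSeq symbol by accession (21154 genes), and the brightest tested probe stood for a gene. The difference of FLT-Surgery and G-Surgery was fitted with lmFit and eBayes of limma 3.58.1 in R 4.3.3, without covariates. Genes that changed 2-fold or more with a nominal p of 0.01 or lower were called. For a probe that no array of one group measured above background, the fold is a bound from Cy5 values after Aquantile normalization, in which the dim group takes, per array, the higher of the probe's own value and the lowest value among probes above background. Dye bias can enter such bounds because every callus RNA carried Cy5.

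The members and the 49 gene lists were chosen with earlier results of these data known. Named genes were, in each direction, the 10 largest fitted called changes without overlap between groups, every called gene on a list, the members with the smallest p and, for cell types, the brightest members of each list, and the genes named by the study. On simulated data with 200 probes changed by 2 on the log2 scale, among 16548, 84.3% of the changed and 0.971% of the unchanged probes were called. Alternatives were 5 other scalings (a second loess, normexp background correction with an offset of 50 and loess, median centring, quantile normalization of the log ratios between arrays, and quantile-normalized Cy5 alone), other filters, slide as a block, array weights, an intensity trend, all 15 arrays, the deposited series table, the replicate number as a block, and leaving out each array. Precision is limited by the 7 arrays, and p-values measure the spread between these mice. Promoter windows are those of RefSeq for build GRCm38.p6. Some results are not reported here.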

Additional observations from a re-analysis of the deposited data

Results flagged for a closer look

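In groups of 4, a single array that stood far from the other 3 was looked for by Dixon's criterion in the G-Surgery values of 107 genes named in the text and in the number of detected probes. It marked 8 of these 108 sets of values, all of them genes, where about 5.4 would be marked by chance. In 5 of the 8, all muscle genes, G-Surgery 1 was the low array. For the fast myosin Myh1 it measured 11.08 against 12.73 to 12.81 on the other ground arrays, and for Tnnc2 9.06 against 10.44 to 10.54. For Pvalb it measured 8.37 against 9.49 to 9.65, for Myom2 5.81 against 7.98 to 8.19, and for Cacna1s 3.03 against 4.89 to 5.06. G-Surgery 1 was the high array for Gab3, at 4.95 against 4.53 to 4.58, still below every flight array. G-Surgery 5 stood apart for Tab2, at 1.57 against -1.35 to -1.05, and for Pnma2, at 2.31 against 3.24 to 3.39. The 3 FLT-Surgery arrays were too few for this criterion.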

How the results depend on the processing

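Against 280 genes called, 226 lower and 54 higher, the counts moved with the scaling. A second loess gave 459 (33 lower, 426 higher), normexp and loess 108 (25 and 83), median centring 72 lower and 288 higher, quantile normalization 116 and 96, and Cy5 alone 127 higher. The number lower was 125 with Cy5 above background on all 7 arrays and 128 with both channels above background. Slide as a block gave 808 genes (746 lower), slide 1 alone 934 (906 lower, 28 higher) and array weights 1150 (1059 lower, 91 higher). Leaving out each array in turn gave 100 to 1370 genes, with 73 to 1310 lower and 26 to 118 higher. The highest totals came without FLT-Surgery 1 and the lowest without G-Surgery 3. Chosen after seeing the data, bright probes without FLT-Surgery 1 gave 669 (551 lower, 118 higher). An adjusted p of at most 0.05 in limma gave 0, 0 lower and 0 higher. The interaction with surgery gave 0 to 3013 probes when each of the 15 arrays was left out.

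The replicate numbers did not pair the samples, since the deviations of same-numbered arrays correlated at -0.36, -0.19 and 0.24. With the replicate number as a block, 91 genes were called (62 lower, 29 higher).

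Of 2376 pairs of a named gene and a setting, 12 reversed the sign. Tpm3 turned to -0.084 with normexp and loess, -0.30 with Cy5 alone and -2.43 by its other probe. Sesn1 turned to 0.016 with Cy5 alone, Bglap3 to 0.19 after a second loess, and Sparc to 0.058 with normexp and loess and 0.13 with median centring. Hba-a2 ranged from -0.71 to 0.030 when each array was left out, above 0 only without FLT-Surgery 3. Other probes gave 1.14 for Fgfr1, -0.60 for Itgam, and -0.53 for both Akap7 and P2rx3. Of the 60 named genes that were called, 59 stayed called with slide as a block (Mia did not), 51 without FLT-Surgery 1, 30 after a second loess, 29 without G-Surgery 3 and 13 with normexp and loess. The causes were not tested.

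Dim signal limits 93 of the 226 genes called lower to a bound, and 3 flight arrays of which 1 stood apart limit every group mean. The difference of the mean number of detected probes kept its sign when each array was left out (-4063.33 to -1934 probes).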
